A study of Homo sapiens with 4 samples.

Results

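The vascular endothelial growth factor (VEGF) family is described here through 10 of the 23228 genes listed in the deposited tables: the ligand genes PGF, VEGFA, VEGFB, VEGFC and FIGF and the receptor genes FLT1, KDR, FLT4, NRP1 and NRP2. The genes were taken by symbol, and all 10 were found in each table. Total RNA was sequenced from A673, a single established Ewing sarcoma cell line grown in serum with insulin and beta-mercaptoethanol. RNA was taken 48 h after siRNA was delivered with a lipid reagent. The group siSMPD1 received siRNA against SMPD1, which encodes acid sphingomyelinase, and the group siGPR64 received siRNA against GPR64, an adhesion G protein-coupled receptor now named ADGRG2. Each was set beside a library with scrambled siRNA, called control_SMPD1 and control_GPR64 here. The title of control_GPR64 names GPR64. That of control_SMPD1 names no knockdown, so its pairing with siSMPD1 was inferred. Published work on Ewing sarcoma has connected GPR64 with PGF, and the direction of that link was not compared with the values below.

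VEGF ligands are secreted cystine-knot dimers that signal through receptor tyrosine kinases best known from endothelial cells. PGF and VEGFB bind FLT1 (VEGF receptor 1), VEGFA binds FLT1 and KDR (VEGF receptor 2), and VEGFC and the product of FIGF (VEGF-D) bind FLT4 (VEGF receptor 3) and, once processed, KDR. The neuropilins NRP1 and NRP2 are co-receptors shared with the class 3 semaphorins. Tumour cells, among them Ewing sarcoma cells, are known as a source of VEGFA that recruits blood vessels.

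Each group holds 1 library, so no difference below has a replicate check, and a ratio compares 2 libraries. Gene counts summed to 19614913 in control_SMPD1 and 18849264 in siSMPD1, against 2882854 in control_GPR64 and 2534861 in siGPR64. Levels are given as CPM, gene counts scaled to a common total per library, and a count of 0 allowed up to 0.156 CPM in control_SMPD1 and 0.159 CPM in siSMPD1, but 1.03 CPM in control_GPR64 and 1.18 CPM in siGPR64. Brackets after a ratio give its 95% exact counting interval, which covers counting error only. A gene passed the rule of size when its ratio was 2-fold or more, the interval excluded 1 and its mean over both libraries was 1 CPM or more. SMPD1 fell from 414 CPM in control_SMPD1 to 91.7 CPM in siSMPD1, and GPR64 from 108.6 CPM in control_GPR64 to 50.1 CPM in siGPR64. GPR64 stood at 388 CPM in control_SMPD1 and 539 CPM in siSMPD1, so control_GPR64 was 3.57-fold below the other control (3.19 to 4.01). SMPD1 was at only 52.8 CPM in control_GPR64, below siSMPD1, and 4.38-fold higher in siGPR64 than there (3.68 to 5.28), so the controls differ and each knockdown was set against both. Of 11 Ewing sarcoma markers, 10 reached 1 CPM in every library, while CD99 was listed at 0 throughout. Reads without a unique alignment, 20.1% to 30.1% of entries, were given to no gene. The 0 of CD99 therefore need not mean absence and was not checked. PAX7, one of the 10, stood at 24.0 CPM in control_GPR64 beside 126 CPM in siGPR64, 197 CPM in control_SMPD1 and 190 CPM in siSMPD1. The label names muscle as the tissue. Of 10 muscle markers, MYOD1, MYOG, MYF5 and TNNT3 had 0 counts in every library and 2 reached 1 CPM, namely MYH3 (1.43 to 2.03 CPM) and TNNT1, a slow troponin gene. TNNT1 stood at 11.3 CPM in control_SMPD1 and 16.6 CPM in siSMPD1, but 59.3 CPM in control_GPR64 and 43.9 CPM in siGPR64. The endothelial genes TEK, TIE1 and ERG also had 0 counts in every library. The 8 immune markers, of which CD68 carried most reads, summed to 10.6 and 13.6 CPM in the SMPD1 pair and 3.08 and 7.44 CPM in the GPR64 pair, control first, and their part in the results was not tested.

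In all, 4 members passed the rule against a paired control: PGF, FLT1, KDR and NRP2. Of all measured genes, 2.49% were higher and 1.11% lower in siSMPD1, and 6.56% higher and 5.18% lower in siGPR64. PGF alone passed in both pairs. FLT1 had 1 count in control_GPR64, and its direction turned against control_SMPD1, so the 4 are not a set that moved together. The 250 bases before the first RefSeq start site of each (GRCh38.p14) are shown so that these 4 promoters can be compared. They lie at chr14:74955765-74956014 (minus strand) for PGF, chr13:28495129-28495378 (minus strand) for FLT1, chr4:55125596-55125845 (minus strand) for KDR and chr2:205682251-205682500 (plus strand) for NRP2. Capitals mark any match on either strand to 6 motifs. They are ACGTG (a form of the hypoxia response core), TGACGTCA (cAMP response element) and TGCNCNC (looser than the metal response core TGCRCNC, where R is A or G). The others are TGATGNAA (ATF4 composite site), GGAAGGAA (EWS-FLI1 repeat) and GGGCGG (GC box).
PGF: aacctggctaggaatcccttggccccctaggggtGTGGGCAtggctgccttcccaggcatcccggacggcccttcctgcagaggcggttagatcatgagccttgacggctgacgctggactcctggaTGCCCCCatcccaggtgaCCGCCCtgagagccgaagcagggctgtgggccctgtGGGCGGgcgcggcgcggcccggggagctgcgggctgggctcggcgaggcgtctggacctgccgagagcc
FLT1: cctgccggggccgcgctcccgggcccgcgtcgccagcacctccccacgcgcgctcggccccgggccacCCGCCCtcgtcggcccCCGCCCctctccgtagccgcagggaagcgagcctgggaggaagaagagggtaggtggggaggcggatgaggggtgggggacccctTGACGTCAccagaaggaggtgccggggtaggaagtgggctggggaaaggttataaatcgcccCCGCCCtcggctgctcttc
KDR: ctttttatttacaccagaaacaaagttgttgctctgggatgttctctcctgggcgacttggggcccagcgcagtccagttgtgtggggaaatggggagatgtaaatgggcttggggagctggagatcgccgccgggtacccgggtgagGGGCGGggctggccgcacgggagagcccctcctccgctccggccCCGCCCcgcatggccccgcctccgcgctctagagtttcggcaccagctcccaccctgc
NRP2: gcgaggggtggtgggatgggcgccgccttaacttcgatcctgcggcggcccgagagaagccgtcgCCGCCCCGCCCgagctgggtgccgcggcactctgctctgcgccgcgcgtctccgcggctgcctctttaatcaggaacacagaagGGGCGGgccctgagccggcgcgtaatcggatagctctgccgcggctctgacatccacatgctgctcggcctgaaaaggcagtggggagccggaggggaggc

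The windows shared the GC box, which occurred 2 times before PGF, 3 times before FLT1, 2 times before KDR and 3 times before NRP2, and which 42.6% of 35116 RefSeq promoter windows of the same length hold. TGACGTCA occurred before FLT1 alone among these, 81 bases before its start site, and is held by 1.65% of all windows. TGCNCNC occurred 2 times before PGF and is held by 49.1% of all windows. Both matches before PGF have C where the metal response core has A or G, so neither fits that core. The 2 GC boxes before PGF begin 105 and 69 bases before the start site and do not overlap the TGCNCNC matches. The first 2 GC boxes before NRP2 overlap by 1 base. ACGTG, TGATGNAA and GGAAGGAA, held by 18.5%, 3.14% and 3.06% of all windows, had no match in the 4 windows printed. GCGTG, the other form of the hypoxia response core, was not searched, so these windows are not shown to lack that core. PGF has a second RefSeq start site, whose window holds 3 GC boxes and none of the other motifs. In all, 7 of the 10 members had a window. Of those not past the rule, VEGFB held 6 GC boxes and 1 TGCNCNC, VEGFC 2 and 1, and FIGF 0 of both. The GC box therefore does not set apart the members past the rule. These matches describe letters and do not show binding.

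PGF, a ligand of FLT1 first found in placenta, was higher in both knockdown libraries than in both controls. For PGF, control_SMPD1 gave 20.2 CPM (389 counts), siSMPD1 62.3 CPM (1175 counts), control_GPR64 14.7 CPM (43 counts) and siGPR64 38.0 CPM (97 counts). The 2 knockdown libraries thus lay above both control libraries. PGF was 3.07-fold higher in siSMPD1 than in control_SMPD1 (2.74 to 3.46) and 4.22-fold higher than in control_GPR64 (3.12 to 5.87). It was 2.56-fold higher in siGPR64 than in control_GPR64 (1.78 to 3.79) but 1.87-fold higher than in control_SMPD1 (1.49 to 2.35), short of the 2-fold threshold. In the order siSMPD1, siGPR64, control_SMPD1, control_GPR64, each neighbour differed beyond counting error, the last pair only just, at 1.37-fold (1.002 to 1.93).

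VEGFA, the main angiogenic ligand of most tumours, had the reverse order of libraries. For VEGFA, control_SMPD1 gave 278 CPM (5344 counts), siSMPD1 219.8 CPM (4148 counts), control_GPR64 372 CPM (1086 counts) and siGPR64 257 CPM (655 counts). Both knockdown libraries lay below both controls. The ratios stayed under 2-fold: VEGFA was 1.27-fold lower in siSMPD1 than in control_SMPD1 (1.21 to 1.32) and 1.45-fold lower in siGPR64 than in control_GPR64 (1.31 to 1.60). Against the other control, siSMPD1 was 1.69-fold lower (1.58 to 1.81), and siGPR64 was 1.08-fold lower with an interval that included 1 (0.999 to 1.18).

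VEGFB, which signals through FLT1 and is known for roles in fatty acid uptake and cell survival, was above the paired control in each knockdown, by less than 2-fold. For VEGFB, control_SMPD1 gave 59.3 CPM (1139 counts), siSMPD1 69.7 CPM (1316 counts), control_GPR64 37.0 CPM (108 counts) and siGPR64 54.1 CPM (138 counts). The difference was 1.18-fold for siSMPD1 (1.09 to 1.27) and 1.46-fold for siGPR64 (1.13 to 1.90), neither past the rule. Set against control_GPR64, siSMPD1 was 1.88-fold higher (1.55 to 2.32). Set against control_SMPD1, siGPR64 was 1.10-fold lower and the interval included 1, so the sign for siGPR64 depends on the control.

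The ligands of the lymphatic receptor were near the limit of detection. VEGFC had 2 counts in control_SMPD1, 1 in siGPR64 and 0 in the other libraries. FIGF had 6 counts in control_SMPD1, 3 in siSMPD1 and 0 in both libraries of the GPR64 pair. No difference was detectable at this depth for either gene, and neither reached a mean of 1 CPM in any comparison. FIGF overlaps a read-through entry, PIR-FIGF, so its own counts are uncertain. Summed over the 5 ligand genes, control_SMPD1 held 358 CPM, siSMPD1 352 CPM, control_GPR64 424 CPM and siGPR64 349 CPM.

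The balance between PGF and VEGFA does not depend on scaling between libraries, because both counts come from the same library. PGF made up 6.79% of the PGF and VEGFA counts in control_SMPD1 (exact interval 6.15% to 7.47%) and 22.1% in siSMPD1 (21.0% to 23.2%). It made up 3.81% in control_GPR64 (2.77% to 5.10%) and 12.9% in siGPR64 (10.6% to 15.5%). Neither knockdown interval reached that of either control. Among the counts of all 5 ligands, VEGFA fell short of its control share in each pair, at 62.5% in siSMPD1 beside 77.7% and at 73.5% in siGPR64 beside 87.8%.

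**Figure D1:**
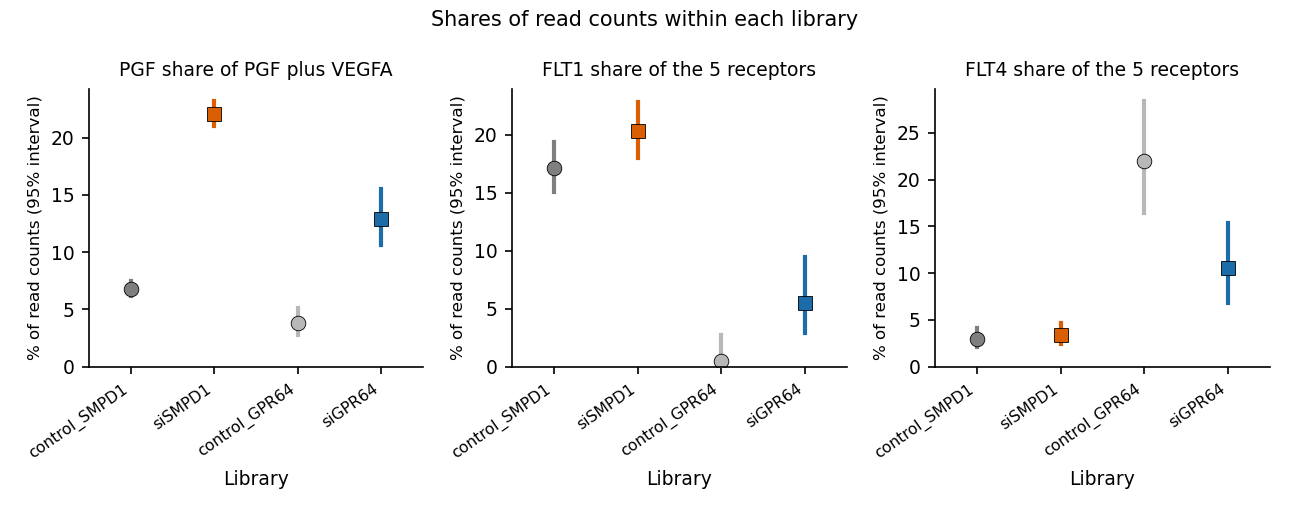
Shares of read counts within each library, in percent, with 95% exact counting intervals as bars. Left, PGF among PGF and VEGFA counts, with siSMPD1 (22.1%) and siGPR64 (12.9%) above both controls (6.79% and 3.81%). Middle and right, FLT1 and FLT4 among the counts of the 5 receptors, which separate the SMPD1 pair from the GPR64 pair.

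Levels of different genes can be compared only per length. Per kilobase of the longest coding transcript in GENCODE release 29, VEGFA led in control_SMPD1 at 78.7 CPM, then VEGFB at 43.0 CPM and PGF at 10.5 CPM. Per kilobase of all merged exons the order of the first 2 turned, with VEGFB at 38.4 CPM, VEGFA at 19.3 CPM and PGF at 3.396 CPM. By either length PGF was the lowest of these 3 ligands in all 4 libraries, siSMPD1 included, where it stood at 32.3 CPM per kilobase of the longest transcript beside 50.5 CPM for VEGFB and 62.2 CPM for VEGFA.

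**Figure D2:**
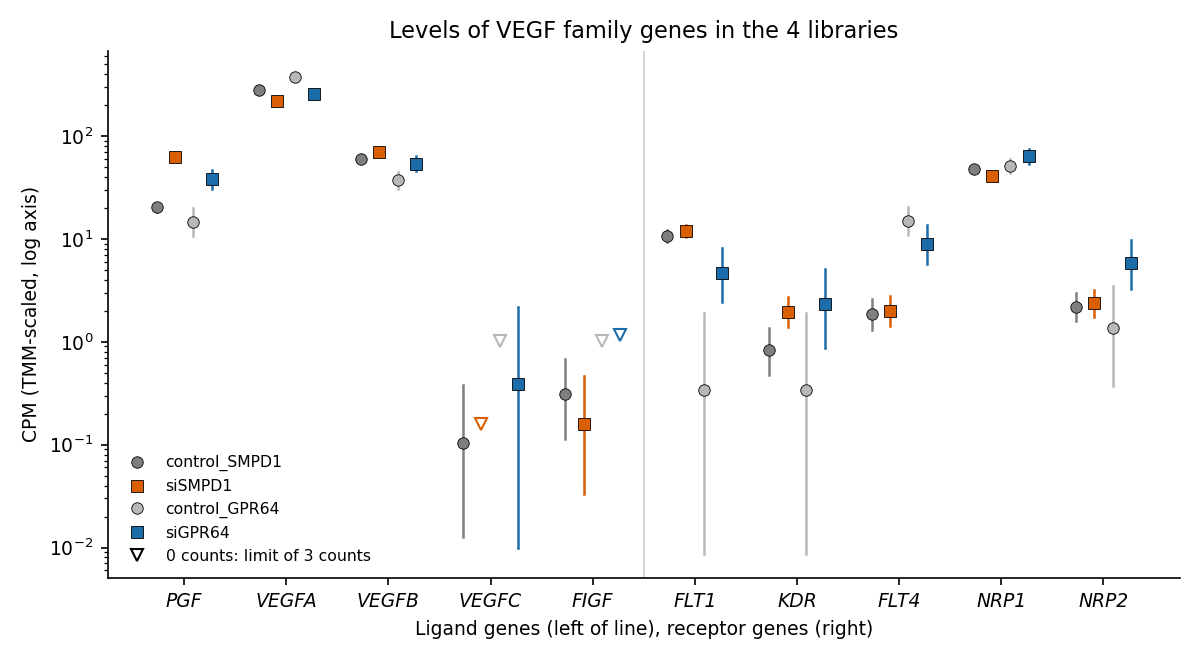
Levels of the 10 VEGF family genes in CPM on a log axis, with points for the 4 libraries (circles, controls; squares, knockdowns) and bars for 95% exact counting intervals. Open triangles mark a count of 0, drawn at the level that 3 counts would give. PGF is the ligand whose 2 knockdown points (62.3 and 38.0 CPM) lie above both control points.

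Among the receptors, NRP1 carried most reads and varied little. For NRP1, control_SMPD1 gave 47.4 CPM (910 counts), siSMPD1 40.6 CPM (767 counts), control_GPR64 51.4 CPM (150 counts) and siGPR64 63.5 CPM (162 counts). Against the paired control, siSMPD1 was 1.17-fold lower (1.06 to 1.28), and siGPR64 was 1.23-fold higher (0.98 to 1.55), neither past the rule. NRP1 held 75.1%, 68.9%, 75.0% and 74.3% of the counts of the 5 receptors in control_SMPD1, siSMPD1, control_GPR64 and siGPR64.

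NRP2, the neuropilin that also binds VEGFC, was highest in siGPR64. For NRP2, control_SMPD1 gave 2.19 CPM (42 counts), siSMPD1 2.38 CPM (45 counts), control_GPR64 1.37 CPM (4 counts) and siGPR64 5.88 CPM (15 counts). The siGPR64 library lay above the other 3, which did not differ beyond counting error from their neighbours in order. NRP2 was 3.90-fold higher in siGPR64 than in control_GPR64 (1.37 to 17.8) and 2.65-fold higher than in control_SMPD1 (1.38 to 4.95), past the rule against both. In siSMPD1 it was 1.09-fold higher with an interval that included 1.

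KDR, the main signalling receptor for VEGFA in endothelium, was at the edge of detection. For KDR, control_SMPD1 gave 0.833 CPM (16 counts), siSMPD1 1.96 CPM (37 counts), control_GPR64 0.343 CPM (1 count) and siGPR64 2.35 CPM (6 counts). Both knockdown libraries lay above both controls, but only the SMPD1 pair gave an interval that excluded 1. KDR was 2.31-fold higher there (1.28 to 4.53). The ratio of siGPR64 to control_GPR64 was 4.82-fold with an interval from 0.83 to 316, and those to the other controls also had intervals that included 1.

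FLT1, the receptor of PGF and VEGFB, differed mainly between the 2 pairs of libraries. For FLT1, control_SMPD1 gave 10.8 CPM (207 counts), siSMPD1 12.0 CPM (226 counts), control_GPR64 0.343 CPM (1 count) and siGPR64 4.70 CPM (12 counts). The siSMPD1 library was 1.11-fold above its control with an interval that included 1 (0.92 to 1.35). The siGPR64 library was 9.30-fold above control_GPR64 (2.03 to 587), a ratio that rests on a single control read, and 2.28-fold below control_SMPD1 (1.28 to 4.51). The direction of FLT1 in siGPR64 thus turned with the control. Among the counts of the 5 receptors, FLT1 held 17.1% in control_SMPD1 and 20.3% in siSMPD1, but 0.50% in control_GPR64 and 5.505% in siGPR64.

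FLT4, the lymphatic receptor, had the reverse split. For FLT4, control_SMPD1 gave 1.87 CPM (36 counts), siSMPD1 2.01 CPM (38 counts), control_GPR64 15.1 CPM (44 counts) and siGPR64 9.01 CPM (23 counts). Both libraries of the GPR64 pair lay above both of the SMPD1 pair. Within pairs, siSMPD1 was 1.07-fold above its control (0.66 to 1.74) and siGPR64 1.66-fold below (0.99 to 2.90), neither beyond counting error. FLT4 held 22.0% of the receptor counts in control_GPR64 and 10.6% in siGPR64, beside 2.97% and 3.41% in the SMPD1 pair. Between the controls it was 7.88-fold higher in control_GPR64 (5.06 to 12.9).

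One endothelial marker, and not the list as a whole, moved with FLT4. EMCN, which encodes endomucin, stood at 2.08, 1.54, 23.6 and 7.83 CPM in control_SMPD1, siSMPD1, control_GPR64 and siGPR64. The 13 endothelial markers summed to 3.85, 3.76, 24.7 and 12.5 CPM in that order, and 3, 6, 9 and 7 of them had 0 counts. Without EMCN the other 12 summed to 1.77, 2.23, 1.03 and 4.70 CPM, lowest in control_GPR64, where FLT4 was highest and where that sum rests on 3 counts. Apart from EMCN, only CDH5 (1.57 CPM) and MMRN2 (1.18 CPM) reached 1 CPM in any library, both in siGPR64. A count of 0 allowed up to 1.18 CPM there, so MMRN2 did not exceed that limit. The part of other cells in the FLT4 difference was not tested, and in bulk RNA fewer cells of a type and less RNA per cell cannot be told apart.

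Read over the family, 2 of the 10 members were higher and 0 lower by the rule in siSMPD1 against its paired control, where 2.49% of 12749 measured genes were higher and 1.11% lower. The median log2 ratio of the 8 measured members was 0.14, beside -0.0039 over all measured genes. In siGPR64, 3 of 10 were higher and 0 lower, beside 6.56% higher and 5.18% lower among 12830 measured genes. The median was 0.95 for the 8 measured members and 0.01 for all. FLT1 and KDR, each at 0.343 CPM in control_GPR64, reached the mean of 1 CPM only through siGPR64. In the SMPD1 pair KDR, at 0.833 CPM in control_SMPD1, did so only through siSMPD1. A member let in this way can only have a ratio above 1. These counts and medians therefore do not measure a shift of the family. Between control_GPR64 and control_SMPD1, 1 member was higher (FLT4) and 1 lower (FLT1), beside 7.02% and 8.33% of genes. Against the control of the other pair, siSMPD1 had 2 members higher (PGF and FLT1) and 1 lower (FLT4), beside 10.5% and 8.02% of genes, and siGPR64 had 2 higher (FLT4 and NRP2) and 1 lower (FLT1), beside 6.18% and 5.25%. PGF in siSMPD1 and NRP2 in siGPR64 were the members past the rule in the same direction against both controls. Among all genes measured against both, 0.978% of 12571 were higher and 0.605% lower in this way in siSMPD1, and 1.52% of 12561 were higher and 1.4% lower in siGPR64. These comparisons share libraries and are not independent.

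**Figure D3:**
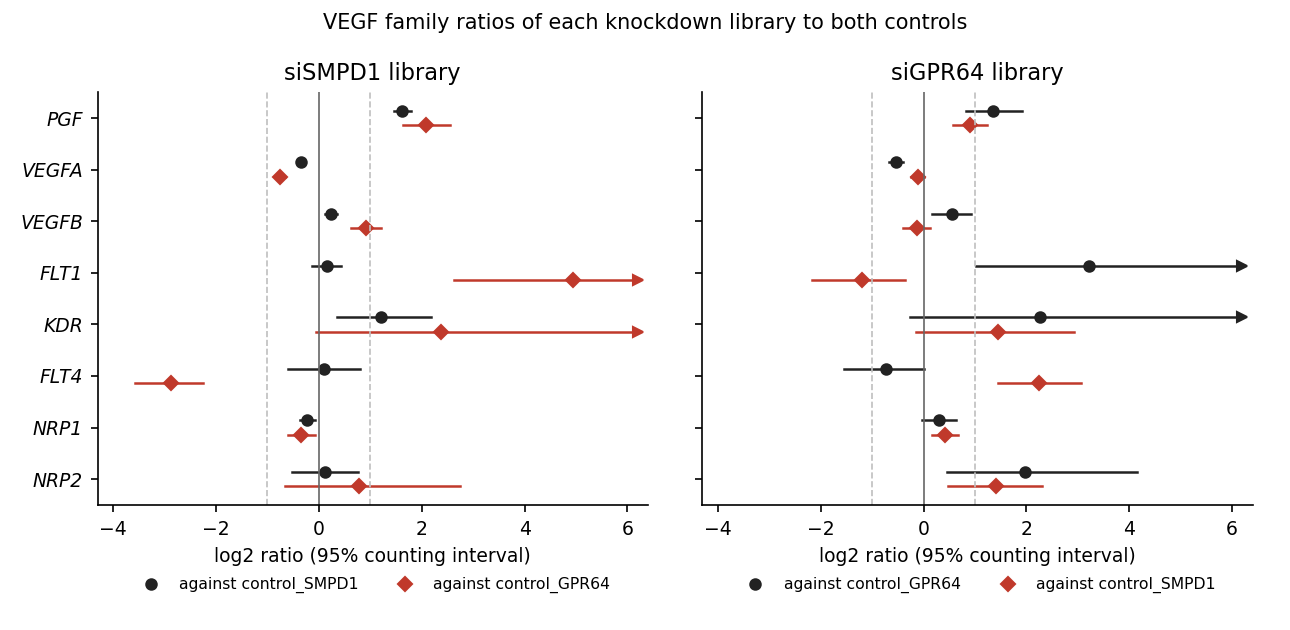
Log2 ratios of the 8 members with a measurable level in siSMPD1 (left) and siGPR64 (right), against the paired control (black circles) and the control of the other pair (red diamonds). Bars are 95% counting intervals, arrowheads mark bounds beyond the axis, and dashed lines mark 2-fold. PGF lies right of 0 in all 4 ratios, while FLT1 and FLT4 change sides or size with the control.

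No member was called when both controls were taken as replicates in a fit. The quasi-likelihood test of edgeR called 0 genes of 13664 in siSMPD1 (0%) and 0 in siGPR64 (0%) at an adjusted p under 0.05, while 179 and 313 genes had an unadjusted p below 0.05. By DESeq2 there was 1 gene in siSMPD1 (0.00732%), not a member, and 0 in siGPR64 (0%). For PGF the edgeR log2 fold change was 1.81 in siSMPD1 and 1.10 in siGPR64, with adjusted p-values of 0.999 and 0.9999 by the quasi-likelihood test. This fit has 1 residual degree of freedom, from controls that differ from each other as described above.

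Proteins that process or release VEGF ligands were mostly short of the rule in siSMPD1. For this list and those below, the shares of all measured genes against the paired control serve as the background. They were 2.49% higher and 1.11% lower in siSMPD1, and 6.56% higher and 5.18% lower in siGPR64. A gene that reaches the mean of 1 CPM only through 1 of the libraries has its direction fixed by that filter. Counts and medians of these lists therefore do not measure a shift of a list. Of 15 listed genes, 10 were measured, and 0 were higher and 1 lower. The lower gene was CTGF, a matricellular protein that binds VEGFA, at 7.60 CPM in control_SMPD1 and 2.91 CPM in siSMPD1. It was 2.59-fold lower (1.90 to 3.62) and 3.14-fold lower against control_GPR64 (1.92 to 5.12). In siGPR64, 5 of the 10 measured were higher and 0 lower against the paired control, with a median log2 ratio of 1.12. CTSD, the lysosomal protease cathepsin D, was 2.61-fold higher (2.27 to 3.01), the matrix protein gene SPARC 2.45-fold (2.20 to 2.73), the urokinase gene PLAU 5.06-fold (2.05 to 18.4) and the heparanase gene HPSE 4.66-fold (1.70 to 20.9). The fifth was MMP9, a gelatinase that frees matrix-bound VEGFA, with 2 counts in control_GPR64 and 12 in siGPR64. At 0.685 CPM in control_GPR64, MMP9 reached the mean of 1 CPM only through siGPR64, so its ratio could only be above 1. None of the 5 passed the rule upward against control_SMPD1. There SPARC was 1.44-fold higher (1.35 to 1.54) and HPSE 1.59-fold higher with an interval that included 1 (0.90 to 2.67), while CTSD was at a log2 ratio of -0.01, PLAU at -0.20 and MMP9 at -1.61.

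Upstream regulators of VEGF ligand genes included none past the rule among 19 listed in siSMPD1, with a median log2 ratio of 0.03 over 15 measured. The largest ratio belonged to VHL, the ubiquitin ligase component that targets hypoxia-inducible factors, at 94.3 CPM in control_SMPD1 and 57.4 CPM in siSMPD1. It was 1.64-fold lower (1.52 to 1.77). In siGPR64, 0 of 19 were higher and 2 lower: XBP1, a transcription factor of the unfolded protein response, at 2.03-fold (1.74 to 2.36), and ERN1, the kinase that splices its mRNA, at 2.54-fold (1.198 to 6.34). Neither passed against control_SMPD1, where XBP1 was 1.44-fold and ERN1 1.70-fold lower. HIF1A, the oxygen-regulated subunit, was not past the rule and is named for its role in VEGFA transcription. For HIF1A, control_SMPD1 gave 242 CPM, siSMPD1 277 CPM, control_GPR64 252 CPM and siGPR64 175 CPM.

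The VEGF receptor signalling list had 0 of 40 genes higher and 2 lower in siSMPD1, with a median log2 ratio of -0.01 over 38 measured. PLCG2, a phospholipase C, was 3.82-fold lower (2.61 to 5.89) and 2.39-fold lower against control_GPR64 (1.14 to 4.83). PTPRJ, a receptor phosphatase that acts on KDR, was 2.25-fold lower (2.03 to 2.48) but 2.12-fold higher against control_GPR64. In siGPR64, 2 were higher and 2 lower, with a median of 0.11 over 37 measured. The adaptor gene SHB was 2.91-fold higher (2.07 to 4.22) and PTPRJ 2.90-fold higher (2.02 to 4.31). PTK2, which encodes focal adhesion kinase, was 2.07-fold lower (1.84 to 2.34) and RCAN1, an inhibitor of calcineurin induced by VEGFA, 2.15-fold lower (1.197 to 4.18). Of these 4, PTK2 alone passed the rule in the same direction against control_SMPD1, at 2.41-fold lower (2.18 to 2.68).

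Semaphorins and plexins, the other partners of neuropilins, gave 2 genes higher and 0 lower in siSMPD1, with 11 of 15 measured. SEMA3F, a ligand of NRP2, was 3.71-fold higher (2.66 to 5.37), and SEMA3B was 2.88-fold higher (1.66 to 5.43). At 0.885 CPM in control_SMPD1, SEMA3B reached the mean of 1 CPM only through siSMPD1, so its ratio could only be above 1. Against control_GPR64, SEMA3F was 1.39-fold lower and SEMA3B was 3.61-fold higher, both with intervals that included 1. In siGPR64, 1 of 9 measured was higher and 1 lower. The adhesion gene NRCAM was 3.81-fold higher (3.23 to 4.52), and SEMA3A, a ligand of NRP1, was 2.31-fold lower (1.72 to 3.15). Against control_SMPD1 their ratios were 1.12-fold higher and 1.501-fold lower.

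Among 28 other angiogenic factors and inhibitors, 3 were higher and 1 lower in siSMPD1, with a median log2 ratio of 0.31 over 19 measured. ANGPTL4, a secreted inhibitor of lipoprotein lipase, was 2.52-fold higher (1.95 to 3.31), FGF1 2.34-fold higher (1.74 to 3.21) and the peptide gene APLN 3.18-fold higher (1.82 to 6.10). ANGPTL1 was 2.30-fold lower (1.78 to 3.03). All but APLN passed in the same direction against control_GPR64. APLN, at 0.833 CPM in control_SMPD1, reached the mean of 1 CPM only through siSMPD1, so its ratio could only be above 1. In siGPR64, 6 were higher and 3 lower, with a median of 0.41 over 20 measured. ANGPTL2 was 4.43-fold higher (2.46 to 9.16), the receptor gene MET 4.07-fold higher (2.41 to 7.61), SERPINF1, an inhibitor of angiogenesis, 2.42-fold lower (2.01 to 2.95) and the metalloproteinase inhibitor gene TIMP3 2.22-fold lower (1.82 to 2.72). ANGPTL2 and VASH2 were the ones of these 9 that passed against control_SMPD1 too, ANGPTL2 at 3.07-fold (2.19 to 4.29) and VASH2, named as the other of the pair, at 2.40-fold (1.36 to 4.12). TIMP3 turned to 2.29-fold higher there.

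The related PDGF ligands and class III receptors had no gene past the rule in siSMPD1, with 7 of 12 measured. CSF1, a macrophage growth factor, was 1.96-fold higher (1.43 to 2.73) and PDGFRB 1.67-fold higher (1.54 to 1.81). In siGPR64, 2 of 8 measured were higher and 0 lower: KIT at 3.27-fold (2.26 to 4.95) and CSF1 at 2.88-fold (1.13 to 9.52). Neither passed against control_SMPD1, where KIT was 1.21-fold and CSF1 1.96-fold higher.

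**Figure D4:**
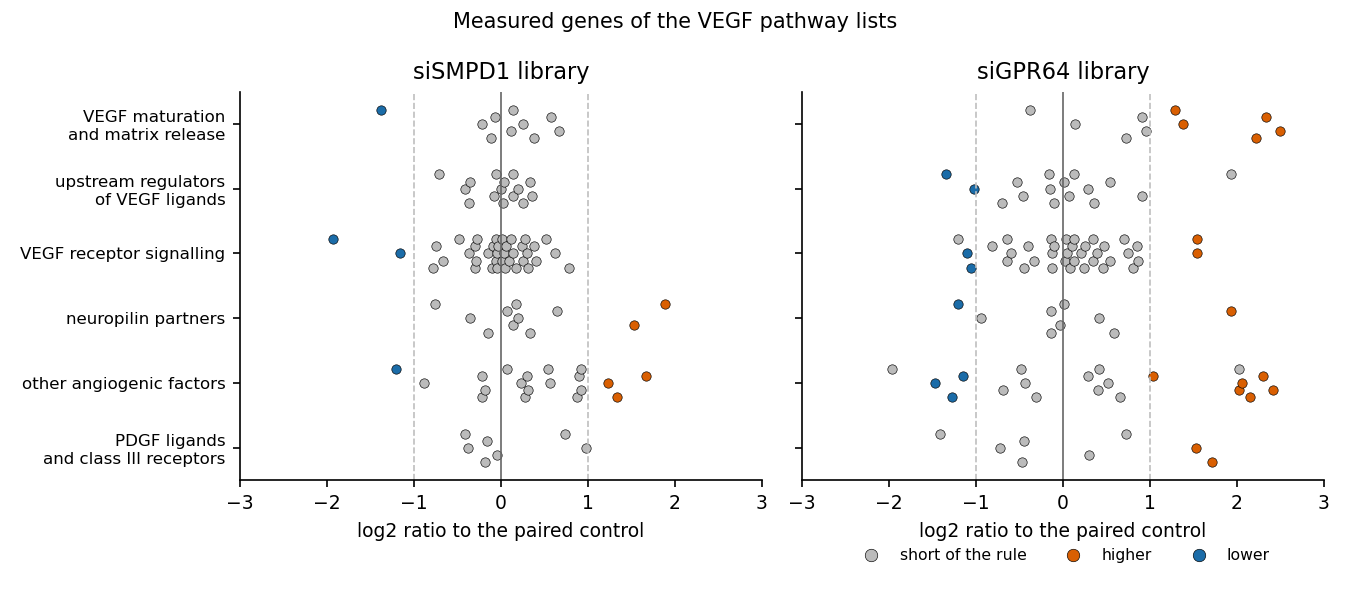
Log2 ratios to the paired control for the measured genes of 6 VEGF pathway lists in siSMPD1 (left) and siGPR64 (right). Each point is a gene, grey short of the rule, orange past it upward and blue past it downward, and its height within a row is only to separate points. Ratios spread wider in siGPR64, where 5 genes of the maturation and matrix list were higher. Of these, PLAU, HPSE and MMP9 had 5, 4 and 2 counts in control_GPR64, and MMP9 reached the mean of 1 CPM only through siGPR64. Counting error is larger in the GPR64 pair, with 2882854 and 2534861 gene counts against 19614913 and 18849264 in the SMPD1 pair. Of all measured genes, 6.56% were higher and 5.18% lower in siGPR64, beside 2.49% and 1.11% in siSMPD1.

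Genes with a profile like that of PGF were sought among the 11963 genes with at least 1 CPM in all 4 libraries, by the Euclidean distance of log2 CPM after subtracting each gene's mean. The nearest was DCHS1, a Dachsous cadherin, at a distance of 0.21, where siSMPD1 (180.4 CPM) and siGPR64 (109.3 CPM) lay above control_SMPD1 (66.9 CPM) and control_GPR64 (39.7 CPM). GRIN2D, TMEM189, CNIH2 and CYP27B1 followed at distances of 0.30, 0.34, 0.35 and 0.36. The nearest to VEGFA was ERI1, an exonuclease of histone mRNA and small RNAs, at a distance of 0.01. Over 4 libraries such a likeness is a description.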

How the data were processed

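Per the labels' protocols, ribosomal RNA was depleted before paired-end sequencing. Tools in the submitters' processing notes are HTSeq, TopHat2, bcl2fastq and SAMtools, with the build hg19. The sources used here do not give versions, annotation, strand setting or counting mode. Values in the deposited tables are whole-number counts per gene that the authors did not normalize. The 5 HTSeq summary lines (36.5% to 44.8% of entries) were left out of library sizes.

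TMM scaling factors came from edgeR 4.0.16 (R 4.3.3), computed on genes that reached 1 CPM in any library. A prior count of 0.5, weighted by each library's size, was added for log2 ratios. Intervals are 95% exact Clopper-Pearson intervals for how a gene's reads divide between 2 libraries. Reads without molecular identifiers are not independent molecules, so intervals and the 3-count limit for a count of 0 cover counting error only. The ratio code was tested on simulated data. With both controls as 1 group, DESeq2 1.42.0 and the quasi-likelihood test of edgeR served as alternatives. Other alternatives were scaling, filters, prior, fold and the control used.

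The members, lists and rule of size were chosen with earlier results of these data known. Genes named are all members, the targets, up to 4 genes per list past the rule (by the nearer interval bound) or otherwise up to 2 by size, and those nearest in profile to PGF and VEGFA. HIF1A, MMP9 and VASH2, the marker genes, the endothelial sum without EMCN and genes at 0 were chosen for naming with their values in view. Some genes that the rule names are left unprinted. Promoter windows are from RefSeq (GRCh38.p14) and lengths from GENCODE release 29. Both differ from the files' build, and no position from the files was used.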

Additional observations from a re-analysis of the deposited data

Results flagged for a closer look

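PIR-FIGF, a read-through entry of the tables that runs from PIR into FIGF, is no member of the family list and held reads in the SMPD1 pair above the limit that a count of 0 allows. It stood at 0.833 CPM in control_SMPD1 (16 counts) and 0.371 CPM in siSMPD1 (7 counts), but its 3 counts in control_GPR64 and 2 in siGPR64 did not exceed that limit. Its ratio in each comparison had an interval that included 1. FIGF itself had 6, 3, 0 and 0 counts in the same libraries. With the counting mode not given, reads that fit both entries cannot be assigned to either.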

How the results depend on the processing

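Alternative values numbered 185 over the family counts and the ratios of single members. Of these, 144 stayed within 1.5 times (counts) or within the counting interval (ratios), 37 moved and 4 reversed. Only a ratio past the rule could be labelled reversed, so other changes of sign are among those that moved. Against the other control, the log2 ratio of FLT4 went from 0.10 to -2.88 in siSMPD1 and from -0.73 to 2.24 in siGPR64. That of VEGFB in siGPR64 went from 0.54 to -0.13. Counts were compared as totals, whichever members made them up. Against the other control, siSMPD1 went from 2 to 3, losing KDR and gaining FLT1 and FLT4. There siGPR64 stayed at 3, but PGF left, FLT4 entered and FLT1 turned to lower. With a minimum mean of 5 CPM the count of members past the rule was 1 in siSMPD1 and 1 in siGPR64, PGF in both. With both controls as 1 group it was 0 in each knockdown by edgeR's quasi-likelihood test and 0 by DESeq2. The log2 ratio of PGF in siSMPD1 was 2.08 against control_GPR64, 1.81 in edgeR and 1.81 in DESeq2. FLT1 in siGPR64 reversed to a log2 ratio of -1.19 against control_SMPD1, -0.99 against both controls summed, -0.37 in edgeR and -0.29 in DESeq2. Total gene counts, DESeq2 size factors, TMM with no filter, a prior of 2 counts and a fold of 1.5 moved no family count by over 1.5 times. No paired analysis was possible because each knockdown is compared as 1 library with 1 library and the labels give no replicate numbers. A fit of both knockdowns as 1 treatment, blocked by pair, would estimate an effect common to them and was not run. Depth in the GPR64 pair limits KDR, FLT1 and NRP2, which had 1, 1 and 4 counts in control_GPR64.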
